A study of Mus musculus with 40 samples.

Results

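The cytosolic ribosomal protein genes are described here across 12 groups of mouse mammary gland. They were taken by symbol alone (Rpl or Rps, a number and at most one of the letters a, l, x or y, plus Rplp0, Rplp1, Rplp2 and Rpsa), which gave 81 of the 22552 genes in the deposited expression table. Of these, 49 belong to the large subunit and its stalk and 32 to the small subunit, and 4 are divergent paralogs of a standard member (Rpl3l, Rpl10l, Rpl39l and Rps27l). The study sequenced poly(A) RNA of whole mammary tissue from outbred mice to compare loss of Ezh1 or Ezh2, either of which can be the methyltransferase of Polycomb repressive complex 2. Its 31 RNA libraries fall into 12 groups, 5 of 2 libraries and 7 of 3. Another 9 chromatin immunoprecipitation libraries were not analysed here.

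On days 13 (p13) and 18 (p18) of pregnancy the groups were control (genotype MMTV-Cre), Ezh1 KO (E1-/-), Ezh2 KO (Ezh2f/f;control) and Ezh1 het Ezh2 KO (E1+/-;E2f/f;control), where "control" inside a genotype is the labels' word for the transgenic line A that was crossed to Ezh2f/f mice. The labels do not say whether the Ezh1 KO mice also carried Cre. Each group held 3 libraries, except Ezh1 KO at p18 with 2. Virgin glands, labelled as 12 weeks old and taken at estrus, gave control and Ezh2 KO groups without and with prolactin, each of 2 libraries. The hormone was injected at 5 µg per g and the right 4th gland was taken 2 h later, after the left had been removed under anaesthesia, so surgery and time came with the hormone. The protocol states that the lymph node was removed from the left gland and says nothing of it for the right. Cre in this line is driven by the MMTV promoter, and whole tissue also holds cells of other types. The pooled values do not show in which cells Ezh2 was deleted. The labels give no age for the pregnant mice.

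The table gives FPKM, the fragments of a gene corrected for transcript length and for library size, as a single authors' value for each whole group. No replicate values were given, so the values below carry no SD, n or p, no difference could be set against replicate spread, and depth is unknown. Differences are of log2(FPKM + 1), a scale that understates low genes, and folds are plain ratios of FPKM. A difference of 1 log2 unit is a rule of size, not a test. Summed FPKM ran from 581531 to 1151970 over the groups. As a check of the labels, Ezh1 stood at 14.7 FPKM in control and 1.06 in Ezh1 KO at p13, and at 7.37 and 0.627 at p18. In Ezh1 het Ezh2 KO Ezh1 was at 6.17 at p13 and 3.41 at p18. Ezh2 was not lower than control in p13 Ezh2 KO, at 13.7 against 12.9, nor in virgin Ezh2 KO without prolactin, at 5.55 against 4.98. It was lower in virgin Ezh2 KO after prolactin, at 4.64 against 6.74, and in p18 Ezh2 KO, at 6.41 against 10.0. In Ezh1 het Ezh2 KO it was also lower, at 9.54 against 12.9 at p13 and 6.24 against 10.0 at p18. The name Ezh2 KO therefore follows the label, which Ezh2 levels do not bear out in every group. In whole tissue, fewer cells of a type and less RNA per cell cannot be told apart.

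Ribosomal proteins and ribosomal RNA form the small subunit, which decodes the message, and the large subunit, which joins amino acids. The proteins are needed in nearly equal numbers, and their messages are among the most abundant in growing cells. In mammals these messages start at a C followed by a run of pyrimidines, the 5' terminal oligopyrimidine (TOP) tract, through which LARP1 and the MTORC1 kinase control how strongly they are translated. Translation factors such as Eef1a1 and Eef2 share the tract. The mammary gland in pregnancy builds alveoli whose cells later make milk protein in bulk.

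The start sites are shown because the TOP tract lies at the start of the message. The first 5 are members with a long run, Rps23 is a member whose level is uncertain, and Rpl3l and Rpl10l are paralogs outside the main band. Each line gives 30 bases of the transcribed strand, 15 before and 15 after the start annotated by RefSeq on GRCm38.p6, with the longest run of C and T in capitals.
Rps6: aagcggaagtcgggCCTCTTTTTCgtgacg
Rpl28: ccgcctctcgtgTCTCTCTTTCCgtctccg
Rpl18: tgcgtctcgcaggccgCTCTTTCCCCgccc
Rplp2: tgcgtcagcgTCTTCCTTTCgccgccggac
Rps27: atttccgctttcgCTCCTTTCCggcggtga
Rps23: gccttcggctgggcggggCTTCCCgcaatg
Rpl3l: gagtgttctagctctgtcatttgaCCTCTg
Rpl10l: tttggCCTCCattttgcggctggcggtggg
These lie at chr4:86857353-86857382 on the minus strand (Rps6), chr7:4792950-4792979 on the plus strand (Rpl28), chr7:45718056-45718085 on the plus strand (Rpl18), chr7:141447636-141447665 on the plus strand (Rplp2), chr3:90213634-90213663 on the minus strand (Rps27), chr13:90923107-90923136 on the plus strand (Rps23), chr17:24727811-24727840 on the plus strand (Rpl3l) and chr12:66284387-66284416 on the minus strand (Rpl10l). The files use mm9, so these positions belong to the sequences only. The runs of Rps6, Rpl28, Rpl18, Rplp2 and Rps27 cover 9 to 11 bases over or next to the start, that of Rps23 6 bases, and those of the paralogs Rpl3l and Rpl10l 5 each. Such windows were used for 61 members, 73 windows in all. Windows on a single chromosome were left out for members but not for the windows of all genes. A run of at least 8 pyrimidines was found in 27 of them (37.0%), against 12.0% of all 32851 promoter windows in the table. The word CCGGAAGT, which factors of the ETS family bind, stood on either strand within 250 bases before to 50 after the start in 12 member windows (16.4%) and in 3.89% of all. Annotated starts can lie some bases from the used start, and a match is a description of letters, not a site shown to be bound.

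Most members were among the highest genes of the gland. Of the 81, 60 had a median of at least 1000 FPKM over the 12 groups, 11 lay between 100 and 1000, and 69 were among the 200 highest genes of the table. Highest by mean were Rplp1, an acidic stalk protein, Rps12, a small subunit protein, Rpl41, the shortest of these proteins, and Rps28, a small subunit protein near the messenger channel. Rplp1 stood at 2756, 2881, 3849.6 and 2798 FPKM in virgin control, virgin Ezh2 KO, control with prolactin and Ezh2 KO with prolactin. In control, Ezh1 KO, Ezh2 KO and Ezh1 het Ezh2 KO it was 4186, 4605, 4605 and 4624 at p13 and 4019.6, 6302, 5426 and 8337 at p18. Virgin groups were low except control after prolactin, p13 groups lay close together, and p18 Ezh1 het Ezh2 KO was highest. Levels of such short messages depend on how length was corrected, and 62 members have a pseudogene or retrocopy in RefSeq, whose reads the authors' counting could split. By RefSeq spans 11 members overlap another protein-coding gene (Rpl5, Rpl18, Rpl19, Rpl23a, Rpl24, Rpl31, Rpl32, Rpl35, Rpl35a, Rps25 and Rps27a), and no source states that strand was used in counting, so their values are uncertain to that extent.

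**Figure D1:**
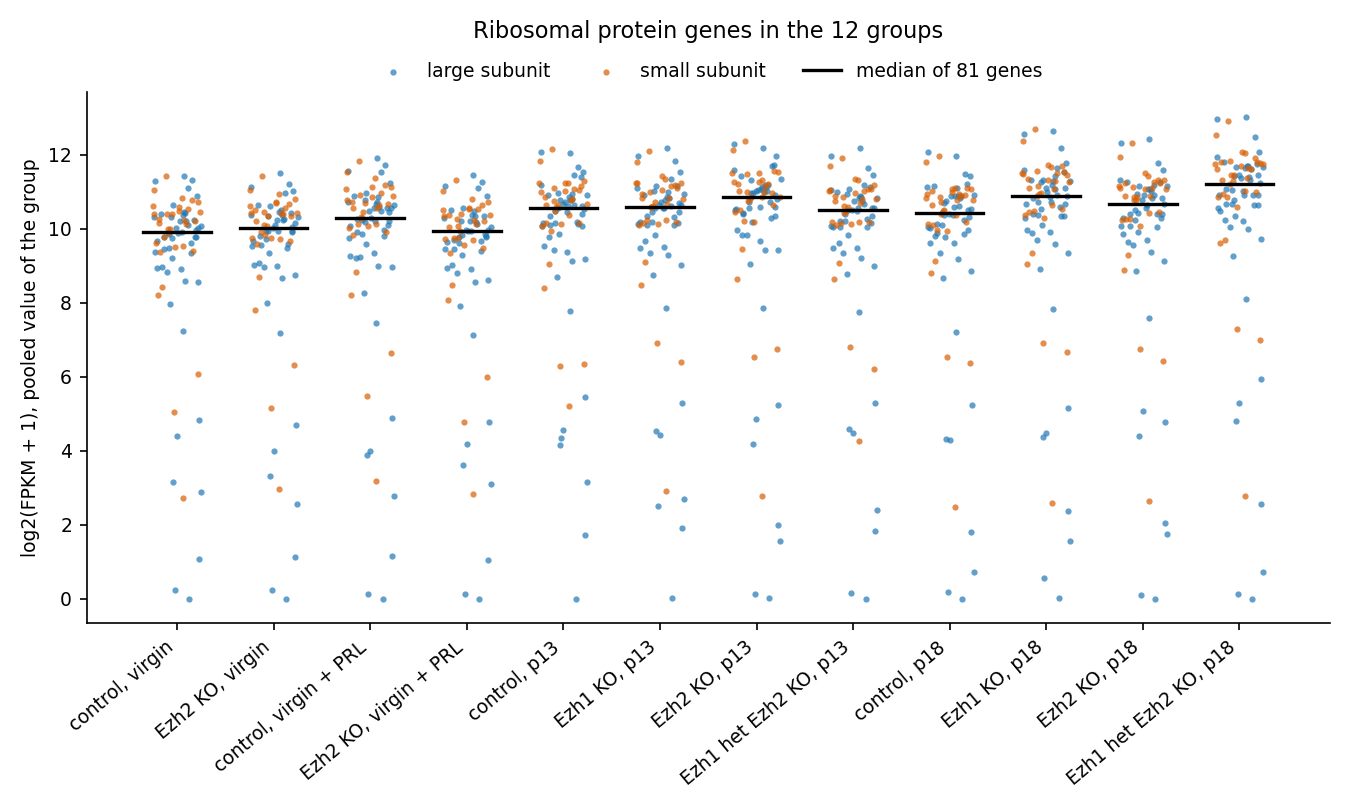
log2(FPKM + 1) of the 81 ribosomal protein genes in each of the 12 groups, 1 point per gene, blue for large and orange for small subunit, with a black bar at the median. The bulk of the genes moves as a band whose median runs from 965 FPKM in virgin control to 2356 in p18 Ezh1 het Ezh2 KO, above a sparse tail of low genes.

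The whole set can be followed through its summed FPKM. The sum was 80049.8 in virgin control, 84064 in virgin Ezh2 KO, 106757 in control after prolactin and 79120.4 in Ezh2 KO after prolactin. At p13 it was 120792, 122922, 145599 and 117544 in control, Ezh1 KO, Ezh2 KO and Ezh1 het Ezh2 KO. At p18 the same genotypes had 114702, 158008, 133516 and 196411. The 4 p13 groups and the 4 p18 groups were all above the 4 virgin groups. At p13 Ezh2 KO stood above the other 3 groups, which lay close together, and at p18 control was the lowest and Ezh1 het Ezh2 KO the highest. Large subunit genes summed to 1.21 to 1.27 times the small subunit genes over the groups, so the subunits kept nearly the same proportion.

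As a share of the group's FPKM sum the picture differed. The members made up 12.9, 14.5, 15.2 and 11.8% of the sum in virgin control, virgin Ezh2 KO, control after prolactin and Ezh2 KO after prolactin. At p13 the share was 18.0, 19.1, 20.0 and 17.9% in control, Ezh1 KO, Ezh2 KO and Ezh1 het Ezh2 KO, and at p18 11.7, 15.4, 16.9 and 17.1%. The p18 control, with 47.4% of its sum in 15 milk protein genes, had the lowest share of all groups, although its ribosomal protein sum exceeded that of every virgin group. Leaving the milk protein genes out of the sum gave 22.2, 26.6, 24.3 and 29.1% at p18 and 18.3, 19.7, 23.4 and 19.3% at p13 in the same order, so p18 was then above p13 within each genotype. The virgin shares were nearly the same with or without milk genes, which made up at most 0.240% of the sum there.

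**Figure D2:**
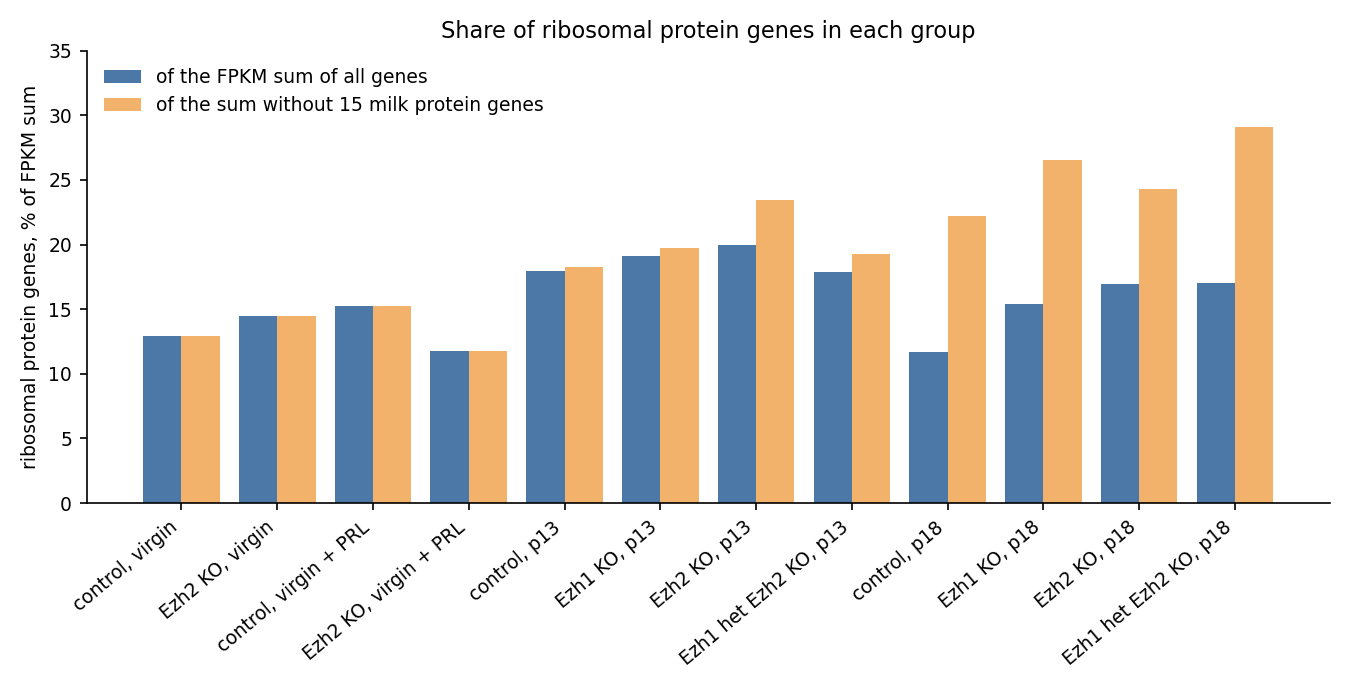
Share of the 81 ribosomal protein genes in the FPKM sum of each group in percent (bars from 0), blue for the sum over all genes and orange for the sum without 15 milk protein genes. At p18 the paired bars separate, from 11.7% to 22.2% in control and from 17.1% to 29.1% in Ezh1 het Ezh2 KO.

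Some standard members were listed far below the rest, and for 4 of them the table holds a high retrocopy row. A retrocopy is a gene copy made from a reverse-transcribed message, often nearly identical to its parent. Rps27, a small subunit protein, ran from 4.61 to 36.0 FPKM, while Gm9846, which RefSeq names Rps27rt, ran from 2875 to 6425. Rpl34 ran from 7.95 to 27.2 and Rpl34-ps1 from 1443 to 3440.4. For Rpl26 the range was 14.9 to 38.3, and for Gm15772, a pseudogene that RefSeq lists with Rpl26 as a synonym, 1424 to 2884. These 3 copies exceeded their member at least 56.2-fold in each group. Rps23, whose product sits at the decoding centre, ran from 26.6 to 155 and its pseudogene Gm15450 (Rps23-ps1 in RefSeq) from 1043 to 1916. Each copy row lay in the range of the standard members. Values of these 4 genes are therefore uncertain as levels of the parent gene. Rpl30 at 25.05 to 60.1 FPKM and Rps15a at 63.2 to 127 were also low, with no copy row above them among those RefSeq names for a member.

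**Figure D3:**
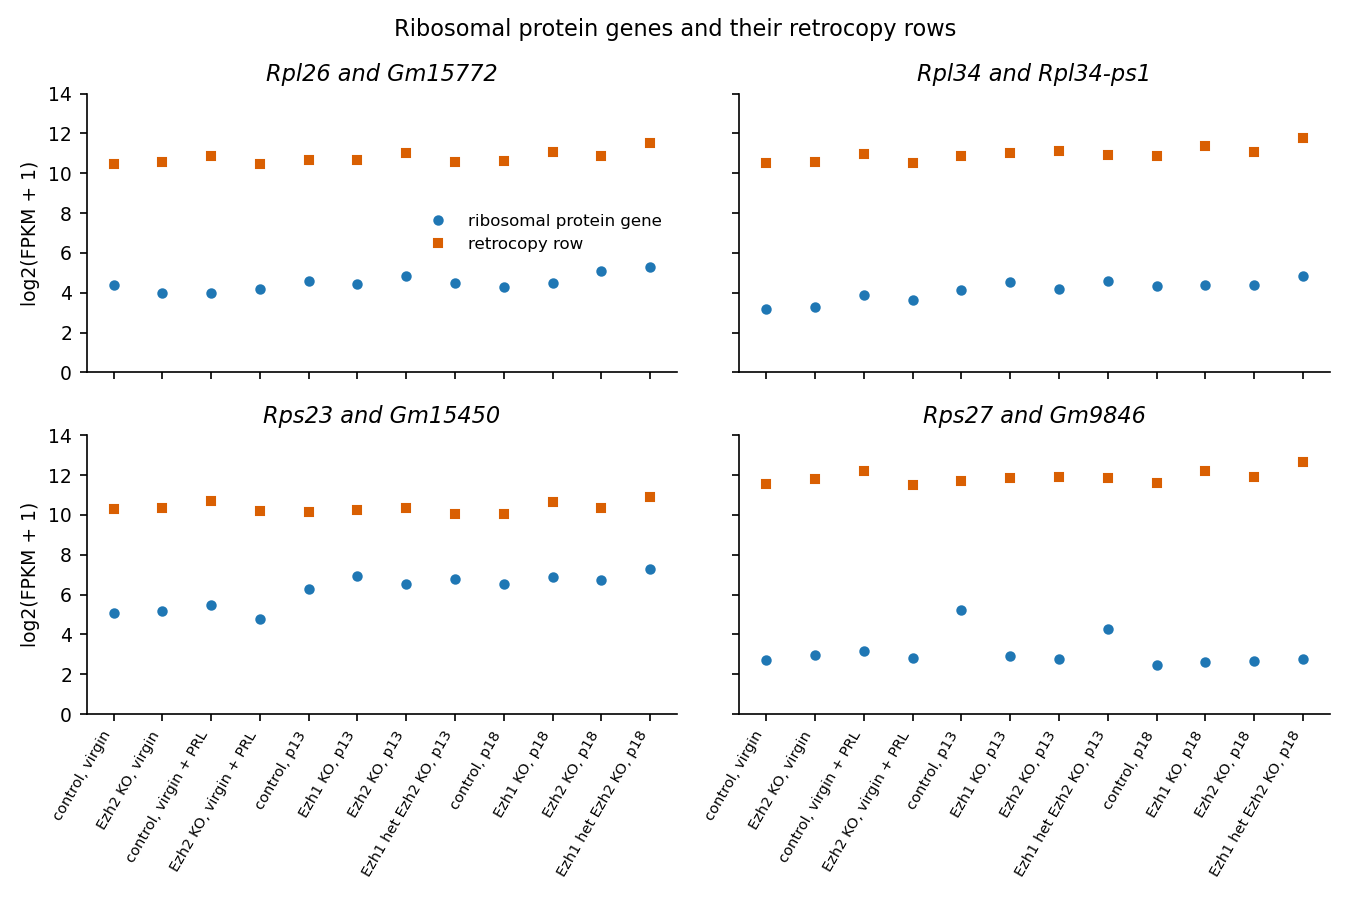
log2(FPKM + 1) in the 12 groups for 4 ribosomal protein genes (blue circles) and their retrocopy rows (orange squares), 1 panel per pair. Each retrocopy row lies above its parent gene in every group, by at least 9.77-fold for Rps23 and 93.0-fold for Rps27.

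Of the divergent paralogs Rpl3l, Rpl39l and Rpl10l lay far below the band, and Rps27l lay nearer to it. Rpl3l, the form of Rpl3 found in skeletal and heart muscle, stood at 19.3 FPKM in control and 4.69 in Ezh1 KO at p13, and did not exceed 0.485 elsewhere. The 10 skeletal muscle markers summed to 10057 FPKM and 2490.3 in these groups and to 11.4 to 436 in the rest, so the groups with Rpl3l were those with the most muscle transcripts. The part of muscle in the Rpl3l values was not tested. Rpl39l, a paralog of Rpl39 known from testis, was 6.42, 4.96, 5.85 and 7.60 in virgin control, virgin Ezh2 KO and the same genotypes after prolactin. It was 7.98, 5.54, 1.98 and 4.27 at p13 and 0.657, 1.97, 2.37 and 0.648 at p18 in control, Ezh1 KO, Ezh2 KO and Ezh1 het Ezh2 KO. Rps27l, a p53-inducible paralog of Rps27, went from 224 in virgin Ezh2 KO to 787 in p18 Ezh1 het Ezh2 KO, the group with the highest FPKM sum. Rpl10l, the testis form of Rpl10, was listed at 0 in 9 groups and at no more than 0.0203 in the other 3.

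The next comparisons use the 76 members with at least 5 FPKM in every group for medians and the 80 members that reached 1 FPKM in a group for counts, beside the 14273 genes kept by the same filter. Rpl10l dropped out. The background median is that of all kept genes, and a second one is that of 183 other genes with a median of at least 300 FPKM, which are nearer in level.

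In virgin control glands the members were higher after prolactin, while in Ezh2 KO they were not. The median difference was 0.41 in control, with 75 of 76 members higher, against 0 over all genes and 0.093 over the 183 abundant genes. In Ezh2 KO it was -0.091, with 9 of 76 higher, against 0 and 0.25. With a common FPKM sum the medians were 0.23 and -0.30. None of 80 members passed 1 log2 unit in either comparison, against 6.47% of all genes in control and 6.82% in Ezh2 KO. Rps6, the small subunit protein phosphorylated by S6 kinase, was at 742 FPKM before and 1107 after prolactin in control, and at 843 and 819.6 in Ezh2 KO. Rpl13a, which also serves as a translational silencer of inflammatory messages, was at 993 and 1404 in control and at 1050.2 and 894 in Ezh2 KO. Rpl34 (0.72), Rps6 (0.58) and Rps15a (0.57) lay highest for control with prolactin minus without, and Rpl26 (-0.40), Rps27l (0.0044) and Rpl30 (0.028) lowest. For Ezh2 KO with prolactin minus without the differences ran up to those of Rpl34 (0.30), Rps27l (0.25) and Rpl26 (0.18) and down to those of Rps23 (-0.37), Rps15a (-0.31) and Rps16 (-0.26). Whether the response differs between the genotypes was not tested, since each group has 1 value.

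Between virgin genotypes without the hormone the member median was near that of all genes and above that of the abundant genes. The median for Ezh2 KO minus control was 0.090, against 0 over all genes and -0.17 over the 183 abundant genes. Of 76 members 60 were higher. After prolactin the member median was -0.42, against 0.0064 over all genes and -0.031 over the abundant genes, and 75 of 76 were lower. Rps16 (0.26), Rps3 (0.26) and Rps7 (0.25) lay highest for virgin Ezh2 KO minus control, and Rpl26 (-0.40), Rps27l (-0.39) and Rpl41 (-0.15) lowest. For Ezh2 KO minus control after prolactin the differences ran up to those of Rpl26 (0.18), Rpl30 (-0.083) and Rps27l (-0.15) and down to those of Rps23 (-0.70), Rpl13a (-0.65) and Rps24 (-0.65). Again none of 80 passed 1 log2 unit, against 4.26% of all genes without and 3.48% with prolactin. These comparisons share groups with the prolactin comparisons and are not separate evidence.

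Lymphoid transcripts also differed between the virgin groups. All 10 lymphocyte markers were higher by at least 1 log2 unit in control after prolactin than before and all 10 were lower by as much in Ezh2 KO. None was at 0 in any of these groups. Their summed FPKM was 80.8 and 404 in control before and after, and 541 and 41.0 in Ezh2 KO. Cd79a, part of the B cell receptor, was at 1.63 and 49.7 in control and at 60.9 and 0.383 in Ezh2 KO. Luminal markers summed to 1544 and 824 FPKM in control and Ezh2 KO without the hormone and 1659 and 1072 with it, so they were lower in Ezh2 KO in both. The part of these cells in the ribosomal protein values was not tested.

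From virgin to p13 the members were higher in both genotypes that have both stages. In control the median was 0.61, all 76 were higher, and the middle 50% of members lay between 0.50 and 0.70. All genes had a median of 0.17 and the abundant genes -0.028. Past 1 log2 unit were 4 of 80 members, Rpl28, Rps23, Rps27 and Rpl3l, all higher at p13, against 11.9% of all genes. In Ezh2 KO the median was 0.80, against 0.12 over all genes and 0.050 over the abundant genes. All 76 members were higher, and 14 of 80 passed the size, all higher, against 20.1% of all genes. These 14 became 1 with a common FPKM sum, 8 without milk protein genes in that sum and 5 with a common upper quartile, each with 1 lower, and the median became 0.48 with a common sum. The shares were below the background while the medians were above it. Rps23 (1.22), Rpl28 (1.16) and Rpl34 (0.99) lay highest for control, and Rpl39 (0.14), Rps19 (0.16) and Rpl26 (0.18) lowest. For Ezh2 KO the differences ran up to those of Rps23 (1.39), Rpl28 (1.30) and Rpl10a (1.23) and down to those of Rplp2 (0.22), Rps21 (0.30) and Rps19 (0.30).

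Single members show the size of the step. Rpl28, a large subunit protein, was at 1208 FPKM in virgin control and 2699.5 at p13, and at 1367 and 3373 in Ezh2 KO, a difference of 1.16 and 1.30. Rpl10a, which lies near the exit site of transfer RNA, was at 652 and 1148 in control and at 712 and 1671 in Ezh2 KO. At the other end, Rps19, the gene most often mutated in Diamond-Blackfan anaemia, was at 866 and 971 in control, and Rpl39, at the peptide exit tunnel, at 1577 and 1734. These last genes were thus less than 0.2 log2 units apart between the stages in control. The 10 proliferation genes were all higher by at least 1 log2 unit at p13 in control, with a median of 3.34, and 9 of 10 in Ezh2 KO, and the fat markers were lower, with a median of -0.53 in control and -1.76 in Ezh2 KO. All 10 muscle markers were higher at p13 in control (median 7.11), and all 10 lymphocyte markers were lower at p13 in Ezh2 KO (median -3.10). The part of these cells in the ribosomal protein values was not tested.

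From p13 to p18 the member medians differed in sign between the genotypes. The median was -0.057 in control, -0.15 in Ezh2 KO, 0.30 in Ezh1 KO and 0.71 in Ezh1 het Ezh2 KO. Over all genes the median was -0.46, -0.45, -0.48 and -0.48 in the same order, and over the 183 abundant genes -0.32, -0.084, -0.066 and 0.21. The members were above all genes in the 4 genotypes and above the abundant genes in all but Ezh2 KO. Of the 76 members 24, 17, 71 and 76 were above 0. Past 1 log2 unit in control were 3 of 80 members, the low genes Rps27, Rpl3l and Rpl39l, all lower, against 22.6% of all genes. In Ezh2 KO there was none, against 5.20%. In Ezh1 KO there were 2, Rpl3l and Rpl39l, both lower, against 13.7%, and in Ezh1 het Ezh2 KO there were 4, with Rpl31 and Rps27a higher and Rps27 and Rpl39l lower, against 17.6%. The direction of these medians depends on scaling, and so do the counts, of which the 2 higher in Ezh1 het Ezh2 KO became 0 with a common FPKM sum and 58 with a common upper quartile. With every group rescaled to a common FPKM sum they were -0.60, -0.27, -0.37 and -0.092 in the same order, and with a common upper quartile 0.46, 0.35, 0.77 and 1.12. The member median stayed above the all-gene median of the same setting in each of these. Rps27l (0.42), Rpl10 (0.33) and Rps23 (0.26) lay highest for control, and Rpl22 (-0.56), Rplp2 (-0.55) and Rps3a (-0.42) lowest. For Ezh2 KO the differences ran up to those of Rps21 (0.35), Rps27l (0.24) and Rplp1 (0.24) and down to those of Rpl4 (-0.56), Rpl30 (-0.47) and Rpl28 (-0.45). Rpl41 (0.60), Rps12 (0.59) and Rps27a (0.58) lay highest for Ezh1 KO, and Rpl34 (-0.16), Rpl30 (-0.12) and Rpl4 (-0.027) lowest. For Ezh1 het Ezh2 KO the differences ran up to those of Rps27a (1.02), Rpl31 (1.01) and Rps27l (0.99) and down to those of Rpl34 (0.23), Rpl4 (0.27) and Rpl22 (0.33). Rpl4, a large subunit protein at the exit tunnel, was at 1491, 1499, 1997 and 1449 at p13 in control, Ezh1 KO, Ezh2 KO and Ezh1 het Ezh2 KO and at 1325, 1472, 1358 and 1744 at p18. Rps27a, which is made as a fusion to ubiquitin, was at 1417, 1525, 1722 and 1377 and 1352, 2275, 1742 and 2798 in the same order. Fat markers summed to 40699.9, 25103, 15712 and 28379 FPKM at p13 and 6757, 12372, 16660.4 and 11458 at p18 in that order, so they were lower at p18 in every genotype except Ezh2 KO. Muscle markers in control went from 10057 to 51.8. The part of these cells was not tested.

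At p13 nearly every member had a higher FPKM in Ezh2 KO than in control, mostly by a small amount. The median was 0.28, 73 of 76 members were higher, and the ratio of the sums was 1.21, against a median of 0.012 over all genes and 0.0083 over abundant genes. With a common FPKM sum the Ezh2 KO median was 0.17. In Ezh1 KO the median was 0.028 and in Ezh1 het Ezh2 KO -0.042, with 46 and 30 of 76 higher. All genes had -0.015 and -0.0059, and the abundant genes -0.062 and -0.051. With a common sum without milk protein genes the member median of Ezh1 het Ezh2 KO was 0.073, so its sign depends on scaling. Members past 1 log2 unit were all lower than control, namely Rps27, Rpl3l and Rpl39l in Ezh2 KO (3 of 80, against 9.23% of all genes), Rps27 and Rpl3l in Ezh1 KO (2 of 80, against 4.38%), and Rpl3l in Ezh1 het Ezh2 KO (1 of 80, against 6.32%). These comparisons share the p13 control. That group held Rps27 at 36.0 FPKM against 6.54, 5.92 and 18.3 in Ezh1 KO, Ezh2 KO and Ezh1 het Ezh2 KO, while the retrocopy Gm9846 was at 3349.6, 3745, 3788 and 3718.

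Rpl10a (0.54), Rpl32 (0.49) and Rps6 (0.49) lay highest for Ezh2 KO minus control at p13, and Rplp2 (-0.24), Rpl30 (-0.22) and Rps21 (-0.057) lowest. For Ezh1 KO minus control at p13 the differences ran up to those of Rps23 (0.63), Rpl39 (0.40) and Rpl34 (0.40) and down to those of Rpl28 (-0.25), Rps2 (-0.19) and Rpl30 (-0.18). Rps23 (0.51), Rpl34 (0.43) and Rpl39 (0.31) lay highest for Ezh1 het Ezh2 KO minus control at p13, and Rpl28 (-0.27), Rplp2 (-0.25) and Rps12 (-0.25) lowest. Rpl10a was at 1148, 1272, 1671 and 1236 FPKM in control, Ezh1 KO, Ezh2 KO and Ezh1 het Ezh2 KO, a difference of 0.54 for Ezh2 KO. Rps6 was at 1326, 1205, 1856 and 1165 and Rpl32 at 1927, 1902, 2716 and 2033 in the same order, so Ezh2 KO alone stood out. Rplp2, the partner of Rplp1 in the stalk, was lowest in Ezh2 KO and Ezh1 het Ezh2 KO, at 2767, 2573, 2335 and 2323. Milk protein genes and luminal markers were also higher in p13 Ezh2 KO (median 2.90 and 0.71) and fat and muscle markers lower (median -1.40 and -8.45). In Ezh1 het Ezh2 KO the milk protein median was 1.83 and the luminal median -0.060. The part of cell composition in these values was not tested.

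At p18 the member median was above control in each mutant genotype, and with FPKM as deposited it was highest in Ezh1 het Ezh2 KO. The median was 0.19 in Ezh2 KO, 0.38 in Ezh1 KO and 0.73 in Ezh1 het Ezh2 KO, with 73, 75 and 76 of 76 members higher and sums at 1.16, 1.38 and 1.71 times control. All genes had a median of -0.0016, 0.0049 and 0. The 183 abundant genes had 0.20, 0.27 and 0.52, so a step in the same direction was seen in other abundant genes. With a common FPKM sum the member medians were 0.51, 0.31 and 0.50 in the order Ezh2 KO, Ezh1 KO and Ezh1 het Ezh2 KO. The all-gene medians were then 0.21, -0.029 and -0.15. Members thus lay 0.29, 0.34 and 0.65 above all genes, most in Ezh1 het Ezh2 KO. Without milk protein genes in that sum the member medians were 0.099, 0.17 and 0.34, and those of all genes -0.069, -0.14 and -0.28. These comparisons share the p18 control, the group with the lowest member sum at that stage. With FPKM as deposited 5 of 80 members in Ezh1 het Ezh2 KO passed 1 log2 unit, Rplp1, Rps21, Rps27a, Rpl26 and Rpl36a, all higher, against 2.77% of all genes. None of them did with a common FPKM sum, with or without milk protein genes in it, or with a common upper quartile. In Ezh2 KO 1 did, Rpl39l, at 2.37 against 0.657 FPKM, against 4.53%, and in Ezh1 KO none, against 2.60%.

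For Ezh2 KO minus control at p18 the differences ran up to those of Rpl26 (0.80), Rplp1 (0.43) and Rps20 (0.42) and down to those of Rpl30 (-0.45), Rpl29 (-0.17) and Rpl10 (-0.011). Rps21 (0.79), Rps27a (0.75) and Rplp2 (0.74) lay highest for Ezh1 KO minus control at p18, and Rpl30 (-0.064), Rpl34 (0.053) and Rpl19 (0.082) lowest. For Ezh1 het Ezh2 KO minus control at p18 the differences ran up to those of Rplp1 (1.05), Rps27a (1.05) and Rpl36a (1.04) and down to those of Rpl7a (0.34), Rpl4 (0.40) and Rpl29 (0.44). In the order control, Ezh1 KO, Ezh2 KO and Ezh1 het Ezh2 KO at p18, Rps21, a small subunit protein, was at 1915, 3316, 2561 and 3838 FPKM, Rpl36a at 1354, 2179.9, 1756 and 2785, and Rps12 at 3956, 6619, 5041 and 7601. The smallest steps in Ezh1 het Ezh2 KO were those of Rpl7a, at 1520.5, 1670.1, 1591 and 1926, Rpl4, given above, and Rpl29, at 888, 949, 791 and 1205. Rpl29 in Ezh2 KO was thus below control. Milk protein genes had a median of -1.12, -0.44 and -0.066 in Ezh2 KO, Ezh1 KO and Ezh1 het Ezh2 KO. Of 10 lymphocyte markers 8 were higher by at least 1 log2 unit in p18 Ezh1 het Ezh2 KO, with a sum of 181 FPKM against 61.6 to 73.1 in the other p18 groups. All 10 were higher at p13 in the same genotype, at 196 against 69.7 to 75.9. Fat markers were above control at p18 in each mutant, at 6757 FPKM in control and 12372, 16660.4 and 11458 in Ezh1 KO, Ezh2 KO and Ezh1 het Ezh2 KO. Erythroid markers were at 54.3 in control and 355, 1448 and 71.4 in these. The part of these cells in the p18 values was not tested.

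**Figure D4:**
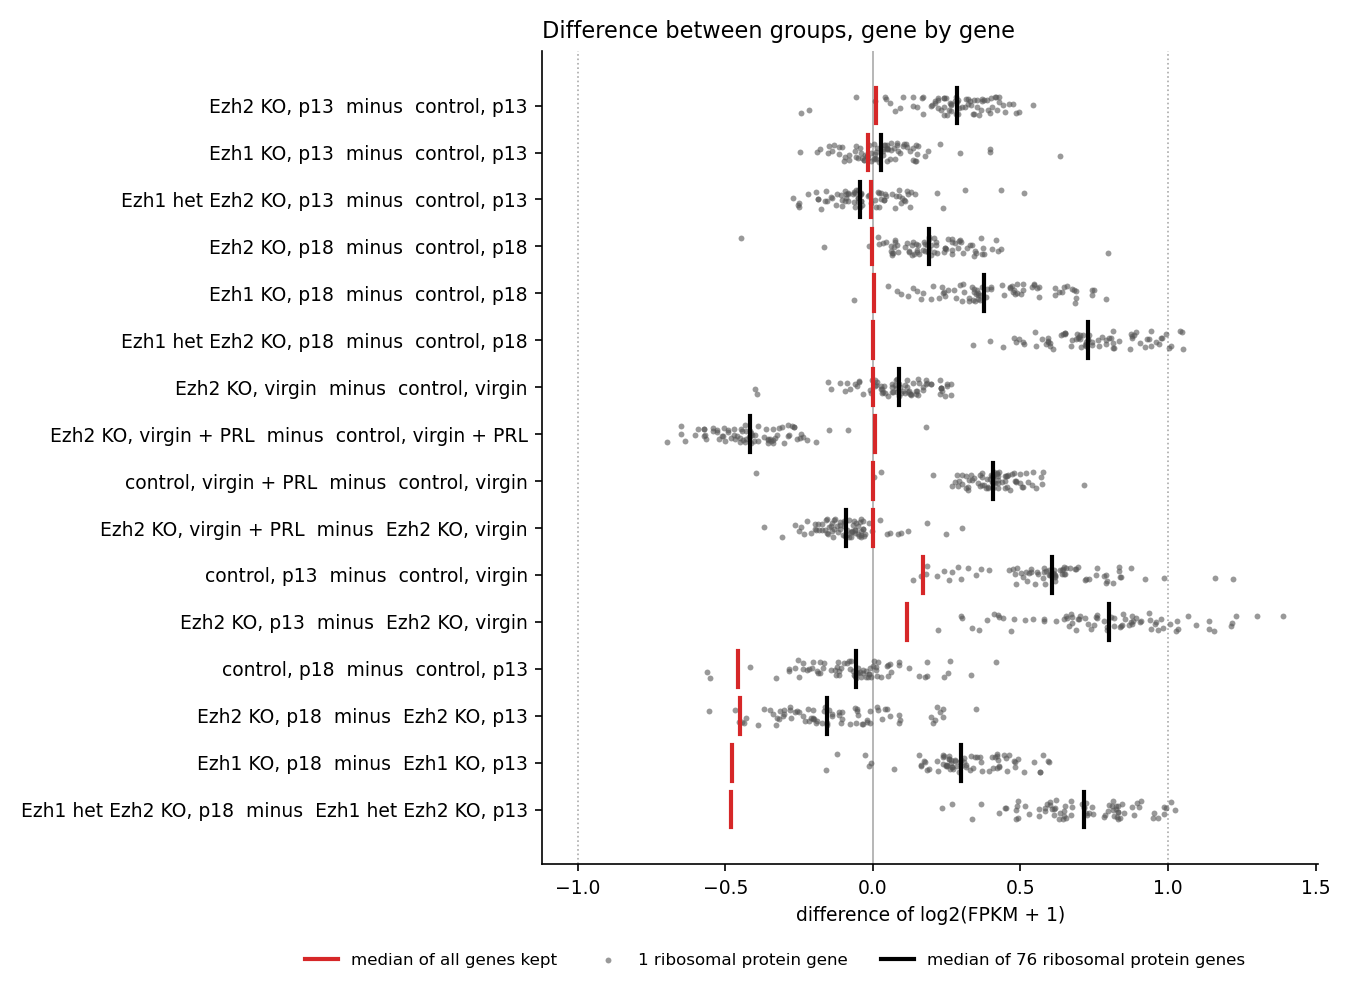
Difference of log2(FPKM + 1) for each of 76 ribosomal protein genes (grey points) in 16 comparisons of 2 groups, with their median (black) and the median of all genes kept (red); dotted lines mark 1 log2 unit. The points form narrow bands, centred at -0.42 for Ezh2 KO minus control after prolactin and at 0.73 for p18 Ezh1 het Ezh2 KO minus control, while the red bar lies near 0 in the comparisons between genotypes.

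Within a group the members kept nearly fixed proportions. Each gene's level was expressed as its log2(FPKM + 1) minus the median member of the same group, and its SD was taken over the 12 groups as a description. Over the 76 members this SD had a median of 0.11 log2 units. Among the steadiest were Rpl5 (0.056), which carries 5S ribosomal RNA and binds MDM2, and Rpl18 (0.056). Rpl5 was at 451, 495, 596 and 442 FPKM in virgin control, virgin Ezh2 KO, control with prolactin and Ezh2 KO with prolactin, 690.4, 653, 911 and 647 at p13 and 654, 826, 758 and 1063 at p18 in control, Ezh1 KO, Ezh2 KO and Ezh1 het Ezh2 KO. Like the summed set, it was highest in p18 Ezh1 het Ezh2 KO and lowest in Ezh2 KO after prolactin.

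The 6 that varied most were Rps23 (0.52), Rplp2 (0.31), Rpl34 (0.28), Rpl30 (0.27), Rpl26 (0.26) and Rps27l (0.22). Of these, Rps23, Rpl34 and Rpl26 are the low genes with a high retrocopy row. Adding the copy to the gene lowered the SD to 0.30, 0.11 and 0.19. Rps23 itself was at 32.4, 34.6, 43.7 and 26.6 FPKM in the virgin groups, 76.7, 119, 92.2 and 109.7 at p13 and 92.0, 119, 106 and 155 at p18, in the orders given above. Its far higher copy Gm15450 was at 1244, 1283, 1663 and 1179 in the virgin groups, 1133, 1212, 1322 and 1071 at p13 and 1043, 1606, 1286 and 1916 at p18. Rplp2, a gene in the main band, was at 2169, 2006, 2961 and 2179 in virgin groups and 1885, 3155, 2320.2 and 3126 at p18. In virgin control Rplp2 stood 1.09 log2 units above the median member. In control, Ezh1 KO, Ezh2 KO and Ezh1 het Ezh2 KO it stood 0.83, 0.73, 0.30 and 0.64 above at p13. At p18 it stood 0.38, 0.70, 0.40 and 0.32 above in the same order, so p13 Ezh2 KO was lowest.

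**Figure D5:**
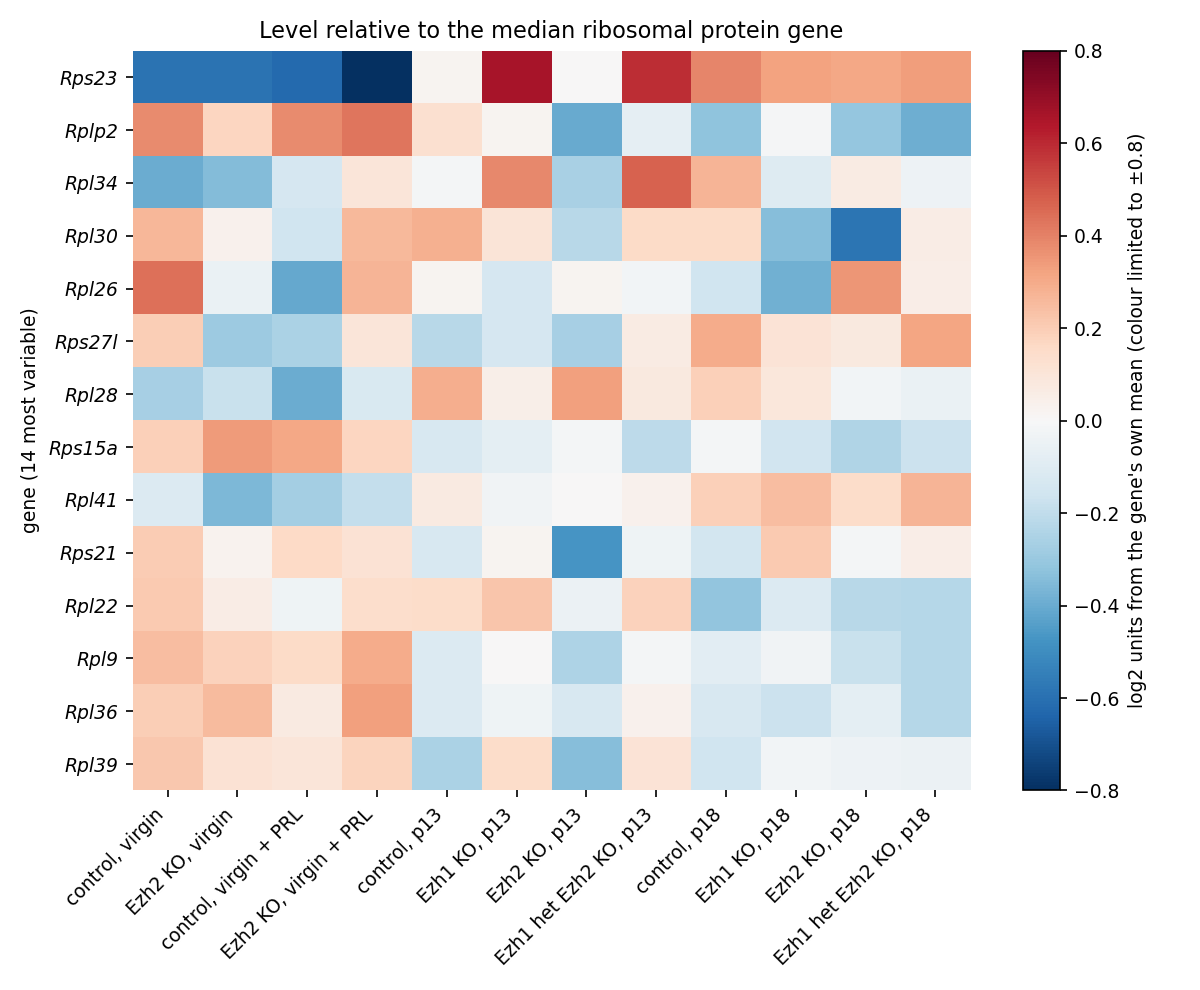
Level of 14 ribosomal protein genes relative to the median member of the same group, as log2 units from the gene's own mean over 12 groups (colour, limited to ±0.8), for the 14 most variable of 76. Rps23 is low in the 4 virgin groups, and Rplp2 is high in them and low in p13 Ezh2 KO and most p18 groups.

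Ribosome parts outside the naming rule are described for comparison. Fau, which encodes small subunit protein S30 as a fusion, was at 1368 FPKM in the p18 control and 2422 in p18 Ezh1 het Ezh2 KO. Gnb2l1, the scaffold protein RACK1, was at 1119 and 1544. The 7 genes of this list, paralogs included, had a median of 0.39 from virgin to p13 in control, 0.39 after prolactin in control and 0.59 for p18 Ezh1 het Ezh2 KO minus control, with none past 1 log2 unit in these. Its sign was opposite to that of the member median in 4 of the 16 comparisons, with -0.057 for virgin Ezh2 KO minus control, 0.043 for prolactin in Ezh2 KO, 0.12 for control p13 to p18 and 0.065 for p13 Ezh1 het Ezh2 KO minus control. Mitochondrial ribosomal proteins, which build the separate ribosome of that organelle, had medians of 0.036, -0.0051 and 0.42 over 76 genes in the same comparisons, and none passed 1 log2 unit either.

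Other genes of the translation pathway are given from virgin to p13 in control, where 11.9% of all genes passed 1 log2 unit and the all-gene median was 0.17. From virgin to p13 in control the median of 14 further TOP messages was 0.63, with 3 past 1 log2 unit, all higher. Npm1, a nucleolar chaperone of ribosome assembly, was at 287 and 774 FPKM, and Pabpc1, the poly(A)-binding protein, at 233 and 493. Of 31 ribosome biogenesis genes 7 were higher past that size and none lower (median 0.73), among them Ncl, nucleolin, at 37.7 and 99.7. The median of 21 initiation and termination factors was 0.46 and none passed 1 log2 unit, and Eif1, a scanning factor, was lower by 0.43. Tpt1, a TOP message for an abundant cytosolic protein, was listed at only 1.85 FPKM in virgin control.

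At p18 the medians of these lists lay below that of the ribosomal proteins. For Ezh1 het Ezh2 KO minus control the median was 0.35 for TOP messages, 0.14 for initiation and termination factors, 0.082 for biogenesis and -0.39 for 15 regulators of the MYC and MTORC1 pathways, beside 0.73 for the members. No gene of these lists passed 1 log2 unit there. Eef2, the translocase, was at 1003 in control and 921 in Ezh1 het Ezh2 KO, and Larp1 at 33.2 and 21.9, while Eef1b2, an exchange factor subunit, was at 421 and 643. After prolactin Myc, a transcription factor that drives ribosome biogenesis genes, was higher in both genotypes, at 13.6 and 49.1 FPKM before and after in control and 13.7 and 39.2 in Ezh2 KO. Biogenesis genes had a median of 0.48 in control, with 2 of 31 past 1 log2 unit and both higher, a share near the 6.47% of all genes, and of 0.26 in Ezh2 KO, with none. In Ezh2 KO the sign of the biogenesis median was thus positive where that of the members was -0.091.

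Members also host small nucleolar RNA (snoRNA) genes in their introns, which guide modification of ribosomal RNA. RefSeq places 59 within the spans of members, and 32 of them, in 22 hosts, have a row in the table. Of the 32, 13 to 18 were listed at 0 in each virgin group and 4 to 6 in each pregnancy group, whereas the median host was at 1053 to 1503 FPKM in virgin groups. The zeros went with length. The 11 rows at 0 in all 4 virgin groups were 45 to 70 bases long, and every other row was at least 77. Both genes named next, Snord100 with 68 bases and Snord42b with 55, are among the short ones. Snord100, in an intron of Rps12, was listed at 0 in all 4 virgin groups, at 127, 1053, 177 and 301 at p13 and at 799, 888, 429.6 and 384 at p18 in control, Ezh1 KO, Ezh2 KO and Ezh1 het Ezh2 KO. Snord42b, in Rpl23a, was also at 0 in the virgin groups, at 54.3, 509, 78.7 and 67.9 at p13 and at 2165, 1174, 929 and 3846 at p18. Summed over the 32 rows, FPKM was 1242, 2425, 2149 and 2233 in the virgin groups, 958, 5119.6, 1488 and 1777 at p13 and 6124, 4582, 3327 and 6399.9 at p18, so the sums of 3 p13 groups lay within or below the virgin range although fewer rows were at 0. In p13 Ezh1 KO and control these sums went with host medians of 1630.1 and 1733. The snoRNA rows thus differed between groups whose host medians lay close together. Mature snoRNAs are short and lack a poly(A) tail, and the part of length and of library preparation in these values was not tested.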

How the data were processed

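FPKM values per gene were deposited by the authors for 12 groups of RNA-seq libraries from whole mammary gland, 1 value per group, in a table of 22552 genes. The build was mm9 and the tools named include Bowtie, TopHat, Cufflinks and Cuffdiff, per the submitters' processing notes, which give no roles or versions. None of the sources used here says how the libraries of a group were joined. With 1 value per group the planned tests could not be fitted. Differences of log2(FPKM + 1) were computed over 14273 genes that reached 1 FPKM in at least 1 group, and a difference of 1 log2 unit was used as a rule of size. Depth is unknown, so no counting interval was given. Named members are the 4 highest and 4 lowest, the 6 most and 3 least variable relative to the median member, the paralogs, and the 3 farthest in each direction in each comparison, with 2 to 4 genes of other lists; a few of these are not reported here. Members, lists and rule were chosen with earlier results of these data known. Gene types, copies, snoRNA genes (without strand) and 5' sequences came from RefSeq tables on GRCm38.p6. Only the counting of genes past 1 log2 unit was tried on simulated data. Folds and noise were chosen there, so that trial says nothing of the spread between libraries. Python 3.11.15 with pandas 2.3.3, NumPy 2.4.6 and matplotlib 3.10.9 was used. Alternatives changed the pseudocount, filter, scaling and, for shares, the genes summed.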

Additional observations from a re-analysis of the deposited data

How the results depend on the processing

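No paired analysis was possible because the table holds 1 pooled value per group, and for the same reason no library could be left out in turn. A median was taken as moved when it shifted by over 0.1 log2 units, a count or share when it changed over 1.5-fold. The pseudocounts 0.1 and 5, both filters and the added retrocopy rows, a choice made after seeing the data, moved no median. The shares moved only on leaving out milk protein genes, to 22.2% in p18 control, 26.6% in p18 Ezh1 KO and 29.1% in p18 Ezh1 het Ezh2 KO. With a common FPKM sum the medians that moved were 0.17 for Ezh2 KO minus control at p13, 0.51 for Ezh2 KO minus control at p18, 0.50 for Ezh1 het Ezh2 KO minus control at p18, 0.23 for control with prolactin minus without, -0.30 for Ezh2 KO with prolactin minus without, 0.49 for control virgin to p13, 0.48 for Ezh2 KO virgin to p13, -0.60 for control p13 to p18, -0.27 for Ezh2 KO p13 to p18, -0.37 for Ezh1 KO p13 to p18 and -0.092 for Ezh1 het Ezh2 KO p13 to p18, and members past 1 log2 unit became, higher, 2 for Ezh2 KO minus control at p18, 0 for Ezh1 het Ezh2 KO minus control at p18, 1 for Ezh2 KO virgin to p13 and 0 for Ezh1 het Ezh2 KO p13 to p18, and, lower, 1 for Ezh2 KO virgin to p13 and 5 for control p13 to p18. With a common sum without milk protein genes the medians were 0.073 for Ezh1 het Ezh2 KO minus control at p13, 0.17 for Ezh1 KO minus control at p18, 0.34 for Ezh1 het Ezh2 KO minus control at p18, 0.23 for control with prolactin minus without, -0.30 for Ezh2 KO with prolactin minus without, 0.30 for control p13 to p18, 0.022 for Ezh2 KO p13 to p18 and 0.57 for Ezh1 het Ezh2 KO p13 to p18, with 0 for Ezh1 het Ezh2 KO minus control at p18, 8 for Ezh2 KO virgin to p13 and 0 for Ezh1 het Ezh2 KO p13 to p18 higher, and 1 for Ezh2 KO virgin to p13 lower. With a common upper quartile they were 0.43 for control virgin to p13, 0.63 for Ezh2 KO virgin to p13, 0.46 for control p13 to p18, 0.35 for Ezh2 KO p13 to p18, 0.77 for Ezh1 KO p13 to p18 and 1.12 for Ezh1 het Ezh2 KO p13 to p18, with 0 for Ezh1 het Ezh2 KO minus control at p18, 5 for Ezh2 KO virgin to p13, 6 for Ezh1 KO p13 to p18 and 58 for Ezh1 het Ezh2 KO p13 to p18 higher, and 1 for Ezh2 KO virgin to p13 and 1 for Ezh1 KO p13 to p18 lower. Each rescaling multiplies a whole group, so the members and the other genes shift together. Pseudocount 0.1 gave 2 for Ezh1 KO minus control at p18 higher and 1 for Ezh2 KO virgin to p13 lower. Pseudocount 5 gave 0 for Ezh2 KO minus control at p18 higher, and 0 for Ezh1 KO p13 to p18 and 1 for Ezh1 het Ezh2 KO p13 to p18 lower. Adding retrocopy rows gave 2 for control virgin to p13 higher, and 1 for Ezh1 KO minus control at p13 and 1 for Ezh1 het Ezh2 KO p13 to p18 lower. Depth is unknown, so counting error could not be given, and low genes such as Rpl10l and Rpl3l are the least certain.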
